A study of Rattus norvegicus with 12 samples.

Results

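The genes that give endothelial cells their identity were followed in rat LV tissue: Pecam1, Cdh5, Nos3, Tie1, Cldn5, Emcn, Fabp4 and Rgcc. They were chosen by name from a table of read counts on 34599 loci, 15101 of which had enough counts to be tested. Of the 8 names, 7 matched a gene symbol in the table and 6 passed the filter on low counts, Cldn5 being listed at 0 counts in every rat. Pecam1 matched no symbol. One locus without a symbol is described in the table by the UniProt entry of rat PECAM1, and its values are given beside the members as the Pecam1 locus, a choice made from that description after the table had been opened.

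All rats were male Sprague Dawley rats that underwent thoracotomy, and LV tissue (the infarct area in ligated hearts) was taken 1 day later, with 4 rats in each of 3 groups. In Sham rats the coronary artery was not tied, whereas in MI rats the left anterior descending coronary artery was ligated and nothing else was given. In iCarP+/Light+ rats the same ligation was followed by injection of Chlorella, a photosynthetic green alga, into the infarcted wall, by adhesion of a light-guiding patch over it and by illumination. The alga, the patch, its adhesive and the light therefore cannot be told apart, and rats with the patch but no light were not analysed here. The study's methods give an age of 6 weeks for the rats bought for its illumination demonstration, and its section on infarction states no age. The day on which each library was made is not given in the sources used here.

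Endothelial cells line every vessel and are held together at their borders by the adhesion proteins VE-cadherin (Cdh5), PECAM-1 and claudin-5 (Cldn5). They receive signals through receptors such as Tie1, make nitric oxide with eNOS (Nos3), carry the sialomucin endomucin (Emcn) on capillaries and veins, and in the heart also pass fatty acids to the muscle with the help of the binding protein Fabp4. Rgcc, a regulator of the cell cycle and of complement responses, is a marker of cardiac capillary endothelium. Several of these genes are not limited to endothelium: PECAM-1 is also carried by leukocytes and platelets, and Fabp4 is also made by adipocytes and macrophages.

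The 7 members found are spread over 6 chromosomes, with positions given as in the count table, whose build the submitters' processing notes name as rn6. Cdh5 lies on the minus strand at chr19:1023683-1074365, Tie1 on the minus strand at chr5:137294544-137321121, Fabp4 on the plus strand at chr2:93792601-93797305 and Rgcc on the minus strand at chr15:61551861-61564695. None of these 4, nor Emcn on the plus strand at chr2:242634399-242714182, nor the Pecam1 locus on the minus strand at chr10:94850583-94886256, overlaps another listed gene. Nos3, on the minus strand at chr4:7320668-7342410, shares 362 bases with the end of Atg9b on the other strand. Atg9b held 0 to 18 counts per rat and Nos3 at least 1762.

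Cldn5, on the minus strand at chr11:86356294-86357718, lies wholly inside Cdc45 on the plus strand at chr11:86329012-86358453. Claudin-5 is an abundant tight junction protein of endothelium, so its 0 counts in all 12 rats stand apart from the other members. A count of 0 allows up to 3 counts, or 0.175 to 0.213 CPM (counts scaled to library size) in these libraries. Cdc45, a DNA replication factor, had 43 to 219 counts per rat. Among the 583 protein-coding genes that lie inside a protein-coding gene of the other strand, 33.8% were at 0 in every rat, as were 22.1% of the 18010 that overlap no gene. Whether reads were assigned by strand is not stated in the sources used here, and no level of Cldn5 is given below.

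Upstream sequences are shown for a pair of members that were lower after MI (Emcn and Tie1), for the member that was not called (Nos3) and for the member with the largest fall (Rgcc). Each is the 250 bases before the gene's start in RefSeq, 5′ to 3′ on the gene's strand, and 5 members had an entry there (these 4 and Cldn5). The positions are those of the RefSeq build GRCr8, not of the count table: Emcn chr2:228564289-228564538 on the plus strand, and on the minus strand Tie1 chr5:137304982-137305231, Nos3 chr4:11706582-11706831 and Rgcc chr15:61084409-61084658. Capitals mark AGGAAG, a core sequence bound by ETS factors such as ERG, or its other-strand form CTTCCT.
Emcn: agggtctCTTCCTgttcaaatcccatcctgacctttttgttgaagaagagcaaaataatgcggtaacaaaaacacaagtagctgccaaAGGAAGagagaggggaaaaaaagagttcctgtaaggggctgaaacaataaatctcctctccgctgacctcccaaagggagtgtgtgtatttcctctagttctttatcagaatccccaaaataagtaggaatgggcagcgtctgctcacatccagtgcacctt
Tie1: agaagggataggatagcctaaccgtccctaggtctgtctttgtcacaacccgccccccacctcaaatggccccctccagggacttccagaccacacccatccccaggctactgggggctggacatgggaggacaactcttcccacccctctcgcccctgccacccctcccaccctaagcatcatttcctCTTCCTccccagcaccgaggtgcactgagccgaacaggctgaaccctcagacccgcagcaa
Nos3: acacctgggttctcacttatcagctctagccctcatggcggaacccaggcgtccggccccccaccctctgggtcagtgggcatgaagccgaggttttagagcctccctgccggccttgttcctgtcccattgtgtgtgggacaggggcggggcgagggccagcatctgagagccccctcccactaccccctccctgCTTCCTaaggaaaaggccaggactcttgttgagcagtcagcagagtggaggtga
Rgcc: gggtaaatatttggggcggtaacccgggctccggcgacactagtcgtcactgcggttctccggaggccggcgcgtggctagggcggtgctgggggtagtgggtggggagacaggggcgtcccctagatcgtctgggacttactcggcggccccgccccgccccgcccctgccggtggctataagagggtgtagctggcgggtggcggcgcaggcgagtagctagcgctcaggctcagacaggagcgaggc
AGGAAG occurred 2 times in Emcn, 1 time in Tie1 and 1 time in Nos3, on either strand, and did not occur in Rgcc or Cldn5. It occurs in 29.5% of the 33469 promoters of the same length. The second ETS form searched, CGGAAG, is in 13.9% of promoters and was in none of the 5 members. CACCC, the core of the sites of KLF factors, is in 49.2% of promoters and occurred 4 times in Tie1, 3 times in Rgcc and 1 time in Nos3. The GC box GGGCGG is in 30.5% of promoters and occurred 5 times in Rgcc and 1 time each in Tie1, Nos3 and Cldn5. TATAAA, in 12.9% of promoters, was in none. A match is only a run of letters in the window.

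The first question was how far these genes differed between infarcted and Sham tissue. Of the 6 members tested, 5 were lower in MI than in Sham rats and none was higher (edgeR, adjusted p below 0.05), with all 4 MI rats below all 4 Sham rats for each of the 5. Of all genes tested in this comparison, 33.6% were called lower and 30.2% higher. The median log2 fold change of the 6 members was -1.20, against -0.06 for all genes. In bulk tissue, fewer endothelial cells and less RNA per endothelial cell cannot be told apart.

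Cdh5, the cadherin that joins endothelial cells, read 602, 522, 563 and 651 CPM in the 4 Sham rats (1, 2, 3 and 5). In MI rats 1, 3, 4 and 5 it read 244, 246, 176 and 296 CPM. The groups did not overlap, with MI 4 the lowest of all and MI 5 the highest of its group. The level after MI was 41.2% of that in Sham, a log2 fold change of -1.28 (SE 0.15, adjusted p = 6.33e-06, edgeR). Scaling libraries by total counts alone moved the median of all genes from -0.06 to 0.52. The log2 fold change of Cdh5 was then -0.69 and still called (adjusted p = 0.00169, edgeR).

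Tie1, an endothelial receptor of the angiopoietin system, read 424, 417, 317 and 356 CPM in Sham rats and 235, 205, 191 and 283 CPM in MI rats. MI 5 again stood highest in its group and remained below every Sham rat. Its log2 fold change was -0.73 (SE 0.14, adjusted p = 6.86e-04, edgeR). This call depended on how libraries were scaled. With total counts alone, Tie1 changed by -0.15 (adjusted p = 0.457, edgeR), or -0.67 from the all-gene median.

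Emcn, a mucin of capillary and venous endothelium, read 112, 91.6, 109 and 112 CPM in Sham rats and 41.9, 50.003, 52.4 and 50.2 CPM in MI rats. Sham 2 stood below the other Sham rats but far above every MI rat. The log2 fold change was -1.12 (SE 0.14, adjusted p = 1.23e-05, edgeR), and -0.54 with total counts alone (adjusted p = 0.00508, edgeR).

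The Pecam1 locus, which by its description encodes the adhesion protein PECAM-1, read 255, 280, 251 and 304 CPM in Sham rats and 147, 149, 149 and 174 CPM in MI rats. Here too the groups were apart. The log2 fold change was -0.82 (SE 0.13, adjusted p = 1.39e-04, edgeR), and -0.24 (adjusted p = 0.186, edgeR), which is -0.76 from the all-gene median, with total counts alone. Summed markers of other cells that carry PECAM-1 moved the other way in the same libraries. The summed level of 10 neutrophil markers was 10.9 to 18.1 CPM in Sham and 512 to 841 CPM in MI rats. That of 8 platelet markers was 21.9 to 39.0 CPM and 76.8 to 241 CPM, with log2 fold changes from -0.72 to 2.66 among the 5 tested. All 10 neutrophil markers were higher after MI, as was 1 of the 5 platelet markers tested (Ppbp, Gp1bb and Gp9 were too low to test, at most 2.13 CPM in any rat). Their part in the level of the Pecam1 locus was not tested.

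Fabp4, which carries fatty acids through capillary endothelium, read 678, 837, 578 and 633 CPM in Sham rats. After MI it read 146, 150.3, 304 and 226 CPM. MI 4, the lowest rat for Cdh5, was the highest MI rat for Fabp4, and all MI rats were below all Sham rats. The log2 fold change was -1.72 (SE 0.27, adjusted p = 9.39e-05, edgeR). Of 8 adipocyte markers, 5 (Adipoq, Plin1, Lep, Cidec and Retn) were too low to test, at most 2.32 CPM in any rat, and the summed level of the 8 was 89.0 to 155 CPM in Sham and 101 to 140 CPM in MI rats. The summed level of 10 macrophage markers was 539 to 839 CPM in Sham and 4023 to 6990 CPM in MI rats, and 7 of the 10 were higher and none lower. The part of these cells in the level of Fabp4 was not tested.

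Rgcc, the capillary-enriched cell cycle regulator, showed the largest fall of the members tested. It read 136, 144, 118 and 158 CPM in Sham rats and 29.7, 26.1, 31.4 and 38.6 CPM in MI rats. The level after MI was 22.6% of that in Sham (log2 fold change -2.15, SE 0.22, adjusted p = 3.15e-06, edgeR). Among all genes tested, 7.87% had a lower log2 fold change than Rgcc, 11.7% than Fabp4, 16.8% than Cdh5, 19.5% than Emcn and 27.9% than Tie1.

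Nos3, the endothelial nitric oxide synthase, differed from the rest. It read 150.0, 167, 134 and 158 CPM in Sham rats and 126, 181, 110.1 and 163 CPM in MI rats. The groups overlapped over most of their range, with MI rats both above and below every Sham rat. The log2 fold change was -0.07 (95% interval -0.39 to 0.25, adjusted p = 0.693, edgeR), so a fall as large as those of the 5 other members lay outside the interval. With total counts alone Nos3 was called higher by 0.51 (adjusted p = 0.0139, edgeR), a value that lay -0.01 from the all-gene median under that scaling. Leaving out single rats moved its log2 fold change between -0.19 and 0.05, with no call in any of these fits.

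**Figure D1:**
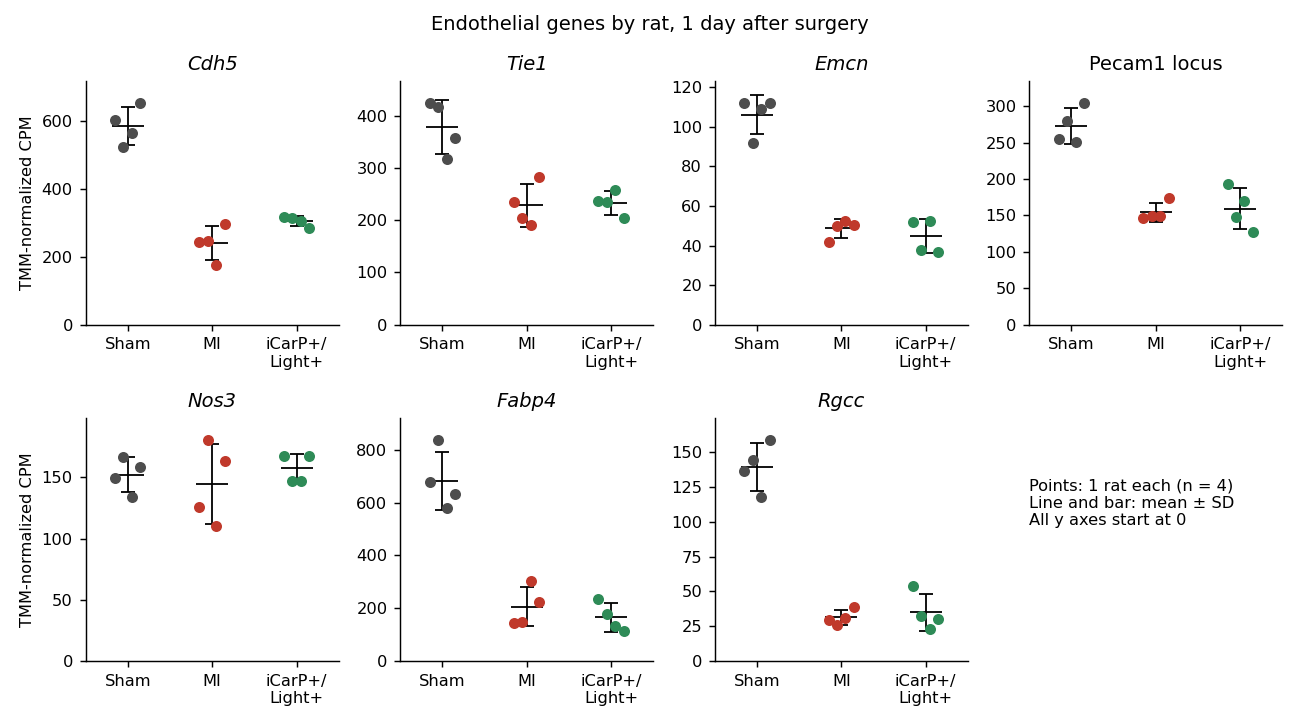
TMM-normalized CPM of the 6 members tested and of the Pecam1 locus in each rat, with 1 panel per gene, 1 point per rat, and the mean ± SD (n = 4) as a line and bar; every y axis starts at 0. All MI rats lie below all Sham rats in every panel but that of Nos3, and the MI and iCarP+/Light+ points overlap in every panel.

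The second question was whether the treated hearts differed from untreated infarcts. None of the 6 members was called in either direction between iCarP+/Light+ and MI rats by edgeR, by DESeq2 or by limma-voom, while 2.01% of all genes were called lower and 11.6% higher in this comparison by edgeR. At an unadjusted p below 0.05 each of the 3 tools gave 1 member, Cdh5. For all 6 members and the Pecam1 locus the CPM ranges of the groups overlapped.

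Cdh5 read 315, 315, 305 and 286 CPM in iCarP+/Light+ rats 1, 2, 4 and 5. MI 5, at 296 CPM, lay above the lowest of these and the other MI rats lay below all of them. The log2 fold change was 0.34 (SE 0.14, 95% interval 0.03 to 0.65, adjusted p = 0.148, edgeR), and a two-sided exact permutation test gave p = 0.0571, where 4 rats against 4 can give 0.0286 at the smallest. Over the other settings the value ranged from 0.07 with total counts alone (adjusted p = 0.770, edgeR) to 0.39 with a replicate block. With single rats left out it ranged from 0.22 without MI 4 (adjusted p = 0.285, edgeR) to 0.46 without MI 5 (adjusted p = 0.0541, edgeR), with no call in any of these fits. The iCarP+/Light+ rats were close together, with an SD of 13.8 CPM around a mean of 305 CPM, against 49.4 CPM around 241 CPM in MI rats (n = 4 each).

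Tie1, Nos3 and Emcn also overlapped with their MI levels. Tie1 read 237, 235, 258 and 203 CPM and Nos3 168, 147, 147 and 167 CPM in the treated rats, with log2 fold changes over MI of 0.03 (95% interval -0.28 to 0.34) and 0.12 (-0.20 to 0.44). Emcn read 51.8, 37.8, 52.6 and 36.9 CPM, and 2 of these rats lay below every MI rat and 1 above. Its log2 fold change was -0.12 (95% interval -0.42 to 0.18), with -0.38 under total counts alone and -0.21 to -0.05 with single rats left out.

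For Fabp4 and Rgcc the spread among treated rats was wider than for the other members tested, with an SD of 32.5% and 37.9% of the mean. In MI rats it was 36.1% and 16.7%. Fabp4 read 237, 180, 134 and 116 CPM, a log2 fold change over MI of -0.31 with a 95% interval of -0.87 to 0.26. It was -0.06 without MI 4, -0.53 without iCarP+/Light+ 1 and -0.56 with total counts alone, with no call in any of these. Rgcc read 54.2, 32.7, 23.4 and 30.0 CPM, with iCarP+/Light+ 1 above every MI rat and iCarP+/Light+ 4 below every MI rat, and its log2 fold change was 0.16 (-0.31 to 0.63). Without iCarP+/Light+ 1, it was -0.13, and no call was made. The Pecam1 locus read 193, 148, 170 and 127 CPM (0.05, -0.24 to 0.33). Adjusted p in edgeR was 0.519 to 0.930 for these 5 members and 0.873 for the locus. The directions of Nos3, Tie1, Rgcc and the Pecam1 locus turned with total counts alone, to -0.16, -0.24, -0.11 and -0.22, where the median of all genes was -0.25. The intervals of Fabp4 and Rgcc are the widest, so these data bound a difference less closely for them than for Cdh5, Tie1, Emcn and Nos3.

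Set against Sham, the same 5 members were lower in iCarP+/Light+ rats and none was higher, with all iCarP+/Light+ rats below all Sham rats for each. In this comparison 33% of all genes were called lower and 33.5% higher. The log2 fold changes were -0.94 for Cdh5 (SE 0.14, adjusted p = 7.67e-05), -0.70 for Tie1 (SE 0.14, adjusted p = 8.50e-04), -1.24 for Emcn (SE 0.14, adjusted p = 4.64e-06), -2.03 for Fabp4 (SE 0.27, adjusted p = 2.25e-05) and -1.99 for Rgcc (SE 0.22, adjusted p = 4.91e-06), all by edgeR. The Pecam1 locus was lower by a log2 fold change of -0.77 (SE 0.13, adjusted p = 2.02e-04, edgeR), and Nos3 was not called (0.05, 95% interval -0.27 to 0.37). With total counts alone Tie1 lost its call here too (-0.39, adjusted p = 0.0575, edgeR), and Cdh5 (-0.62) and the Pecam1 locus (-0.45) kept theirs. The comparisons of MI and of iCarP+/Light+ with Sham share the same 4 Sham rats, so they are not separate evidence.

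**Figure D2:**
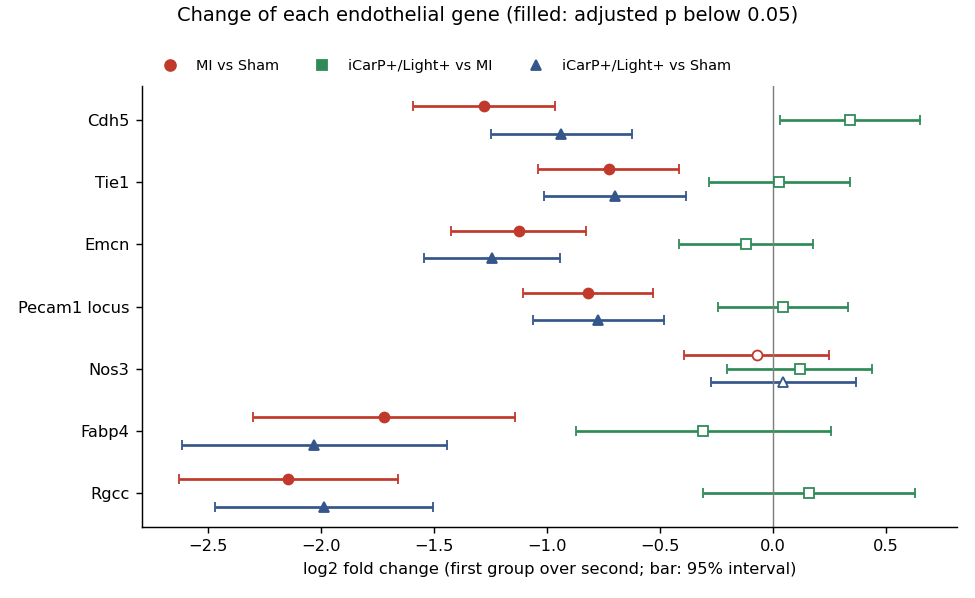
Log2 fold change (x axis) of each member tested and of the Pecam1 locus (y axis) in 3 comparisons, as points with 95% intervals; filled points had an adjusted p below 0.05 in edgeR. The intervals over Sham lie below 0 for every gene but Nos3, and those of iCarP+/Light+ over MI span 0 for every gene but Cdh5, whose interval is 0.03 to 0.65.

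Levels of different genes were compared as CPM per kb of transcript length. In Sham rats Fabp4 stood highest, at 1021 ± 167 CPM per kb (SD, n = 4), followed by Rgcc (156 ± 19.1), Cdh5 (145 ± 13.7), the Pecam1 locus (114 ± 10.3), Tie1 (82.8 ± 11.2), Emcn (76.3 ± 6.997) and Nos3 (28.3 ± 2.63). The rats' ranges of Rgcc and Cdh5 overlapped, as did those of Tie1 and Emcn, so those neighbours are not ordered by these data. After MI the order was Fabp4 (310 ± 112), the Pecam1 locus (64.5 ± 5.49), Cdh5 (59.8 ± 12.3), Tie1 (49.98 ± 8.93), Rgcc (35.3 ± 5.91), Emcn (35.0 ± 3.30) and Nos3 (26.9 ± 6.05). The range of Rgcc overlapped with that of Cdh5 in Sham rats and lay wholly below it after MI. In iCarP+/Light+ rats the order was Fabp4 (250 ± 81.2), Cdh5 (75.8 ± 3.43), the Pecam1 locus (66.5 ± 11.9), Tie1 (51.0 ± 4.90), Rgcc (39.4 ± 14.9), Emcn (32.2 ± 6.20) and Nos3 (29.2 ± 2.20). Below Fabp4, the ranges of each gene and the next in order overlapped in both infarcted groups. All 7 stayed among the more abundant genes of the tissue: the lowest, Nos3, was above at least 80.9% of the genes tested in each group on this scale.

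A level relative to Cdh5 in the same rat depends little on how libraries are scaled and shows whether members fell by unequal amounts. On the log2 CPM scale, Nos3 minus Cdh5 was -2.07 to -1.64 in Sham rats, -0.96 to -0.44 in MI rats and -1.10 to -0.77 in iCarP+/Light+ rats, so every infarcted rat lay above every Sham rat. Tie1 minus Cdh5 was likewise higher in all MI rats (-0.26 to 0.12) than in all Sham rats (-0.87 to -0.32). The same held for the Pecam1 locus, at -0.77 to -0.24 in MI rats and -1.24 to -0.90 in Sham rats. In iCarP+/Light+ rats both Tie1 (-0.49 to -0.24) and the locus (-1.17 to -0.71) overlapped with Sham.

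Rgcc went the other way. Rgcc minus Cdh5 was -2.26 to -1.85 in Sham rats, against -3.23 to -2.48 after MI and -3.70 to -2.54 with treatment, both infarcted groups lying wholly below Sham. Fabp4 minus Cdh5 lay below Sham (-0.04 to 0.68) in all iCarP+/Light+ rats (-1.30 to -0.41), whereas MI rats (-0.74 to 0.79) overlapped with it. Emcn minus Cdh5 overlapped between all groups. No ratio separated iCarP+/Light+ from MI rats.

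**Figure D3:**
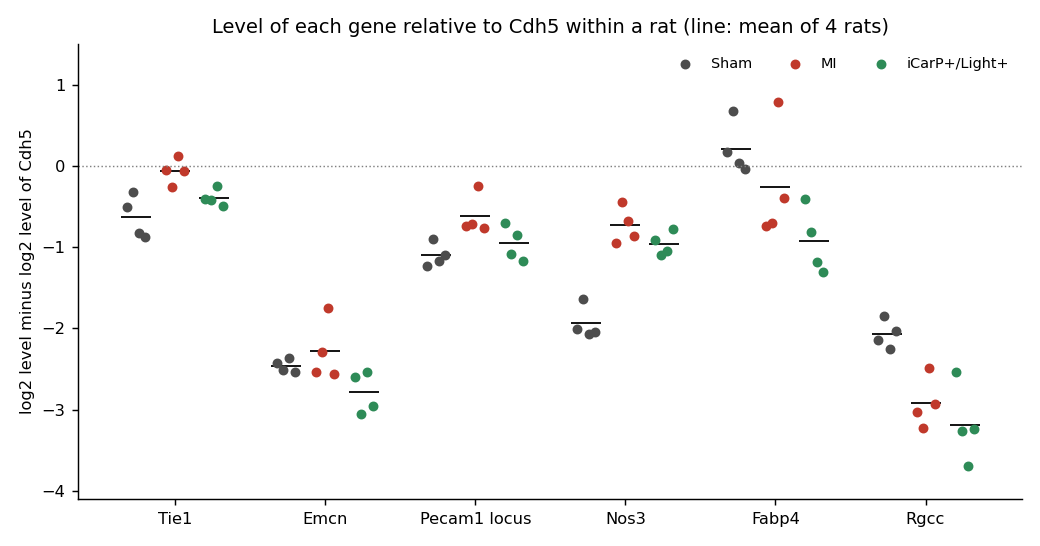
Log2 CPM of each gene minus log2 CPM of Cdh5 in the same rat (y axis), by gene (x axis), with 1 point per rat and a line at the mean of 4 rats. Nos3 sits higher in all MI and iCarP+/Light+ rats than in Sham rats and Rgcc sits lower, while MI and iCarP+/Light+ points overlap for every gene.

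Around the members, 6 further lists of endothelial genes were followed, 73 symbols in all, of which 71 were found and tested (Cd36 and Ackr1 matched no symbol). After MI 43 were lower, 11 higher and 17 not called, with a median log2 fold change of -0.63, where 33.6% of all genes were lower and 30.2% higher. With total counts alone the balance turned, to 19 lower and 21 higher of the 71, beside 2776 lower and 7707 higher of all genes. Between iCarP+/Light+ and MI rats 9 were higher and 0 lower by edgeR, with a median of 0.08 beside 0.01 for all genes. Of all genes 11.6% were higher and 2.01% lower there, so the 9 of 71 called higher lay near the share of all genes and are no result about endothelial genes as a group. The counts of the single lists that follow are to be read against the same shares. The 0 was 1 with DESeq2's size factors, 2 with DESeq2 and 5 with total counts alone.

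Of 25 receptors and surface proteins, 18 were lower and 3 higher after MI (median -0.67). Cd34, a sialomucin of capillary endothelium and progenitors, went from 299 to 62.0 CPM (log2 fold change -2.27). Adgrf5, an adhesion G protein-coupled receptor, went from 556 to 138 CPM (-2.01). Procr, the endothelial protein C receptor (1.41), and Plvap, the protein of the diaphragms of fenestrated capillaries (from 6.26 to 49.2 CPM, 2.97), rose. Between iCarP+/Light+ and MI rats 1 of the 25 was called: Thbd, the anticoagulant receptor thrombomodulin, was at 242 CPM in Sham, 116 CPM in MI and 198 CPM in iCarP+/Light+ rats (0.77 over MI, SE 0.17, adjusted p = 0.00694, edgeR).

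Endothelial transcription factors were lower for 13 of 16 genes after MI and higher for 1 (median -0.85). The lowest were Tcf15, a factor of cardiac capillary endothelium that takes part in fatty acid uptake (-2.32), and the Notch target Heyl (-1.77), and the one that rose was Lmo2, a partner of blood and endothelial factors that leukocytes also make (1.23). Against MI, 2 were higher in iCarP+/Light+ rats. The flow-responsive factor Klf2 was at 148 CPM in Sham, 110.1 CPM in MI and 170.0 CPM in iCarP+/Light+ rats (0.63 over MI, SE 0.17, adjusted p = 0.0224, edgeR). Sox7 was at 89.9, 28.2 and 43.9 CPM (0.64 over MI, SE 0.12, adjusted p = 0.00310, edgeR), still lower than in Sham (-1.04).

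In the list of capillary lipid and water handling, 4 of 7 genes were lower and 2 higher after MI (median -1.06). The water channel Aqp1 went from 962 to 188 CPM (-2.35) and the glycerol channel Aqp7, also made by cardiomyocytes, from 87.7 to 15.3 CPM (-2.52). Fabp5, a second fatty acid binding protein of capillaries, rose from 78.2 to 229 CPM (1.55), and the lipase Lipg rose from a low level (0.95). Of 10 macrophage markers 7 were higher and none lower in the same comparison, and their part in the level of Fabp5 was not tested. Car4, a carbonic anhydrase of capillary endothelium, was at 48.2 CPM in Sham, 23.1 CPM in MI and 757 CPM in iCarP+/Light+ rats. Over MI, the log2 fold change of Car4, 5.04 (SE 0.30, adjusted p = 1.77e-06, edgeR), was the highest of the 71 genes. All 10 neutrophil markers were also above MI in the treated rats, with a summed level of 3473 to 10106 CPM, and their part in this value was not tested.

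Of 9 arterial and venous genes, 3 were lower and none higher after MI (median -0.31), among them the Notch target Hey1 (-2.01) and the venous receptor Ephb4 (-0.92). Bmx, a tyrosine kinase of arterial endothelium, was at 9.41 CPM in iCarP+/Light+ and 2.52 CPM in MI rats (1.89, SE 0.40, adjusted p = 0.00604, edgeR). All 10 neutrophil markers were higher in the same comparison, and their part in the level of Bmx was not tested. Of 6 lymphatic and endocardial genes, 3 were lower and 1 higher after MI (median -1.53): the lymphatic factor Prox1, which cardiomyocytes also make (-3.28), and Cytl1 (-3.07) were lowest, and podoplanin (Pdpn) rose from 10.1 to 145 CPM (3.84) and stood at 288 CPM in iCarP+/Light+ rats (0.99 over MI, SE 0.26, adjusted p = 0.0203, edgeR). Podoplanin is also made by stromal cells and macrophages. The summed level of these 6 genes was higher after MI, at 225 to 323 CPM against 156 to 186 CPM in Sham rats, opposite to their median.

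The list of activated endothelium was the only one of the 6 with a median above 0 after MI (0.35), with 4 of 8 genes higher and 2 lower. Its summed level went the other way, with 362 to 424 CPM in Sham rats and 222 to 295 CPM in MI rats. P-selectin (Selp), which captures leukocytes and is also carried by platelets, went from 0.704 to 27.4 CPM after MI (5.27) and to 71.5 CPM in iCarP+/Light+ rats (1.38 over MI, SE 0.21, adjusted p = 5.86e-04, edgeR). Icam1, a leukocyte adhesion molecule of endothelium and other cells, went from 16.2 to 43.3 and 115 CPM (1.41 over MI, SE 0.18, adjusted p = 1.57e-04, edgeR). E-selectin (Sele) rose after MI (1.54) and was at 19.7 CPM in iCarP+/Light+ and 23.5 CPM in MI rats. The apelin receptor Aplnr (-1.96) and Esm1 (-0.87) fell. The summed level of the 8 platelet markers was 102 to 245 CPM in iCarP+/Light+ and 76.8 to 241 CPM in MI rats, 2 of the 5 tested being higher, and their part in Selp was not tested.

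Markers of other cells moved with these changes. After MI all 9 cardiomyocyte markers tested were lower (median -3.21), with a summed level of 52637 to 57859 CPM in Sham rats and 3379 to 7026 CPM in MI rats, and 8 of 10 fibroblast markers were lower and 1 higher (median -1.70). Mural cell markers, of the pericytes and smooth muscle around vessels, were lower for 4 of 10 and higher for 1 (median -0.39). Of 5 red blood cell markers 4 were lower, and of 2 mesothelial markers tested 1 was lower. The median of the 6 endothelial members, -1.20, stood between those of the mural and the fibroblast lists. Against MI, none of the 9 cardiomyocyte and 10 mural markers was called in iCarP+/Light+ rats, 1 fibroblast marker, 3 red blood cell markers and all 10 neutrophil markers were higher, and 3 macrophage markers were lower and 1 higher. None of the 3 adipocyte and 2 mesothelial markers tested was called between iCarP+/Light+ and MI rats, and 1 of the 3 was higher in MI than in Sham rats. Mitochondrial genes took 22.8% to 28.9% of the counts in Sham and 7.14% to 14.2% in the other rats. The part of these shifts in the levels of the members and of the further endothelial genes, Thbd and Klf2 among them, was not tested.

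**Figure D4:**
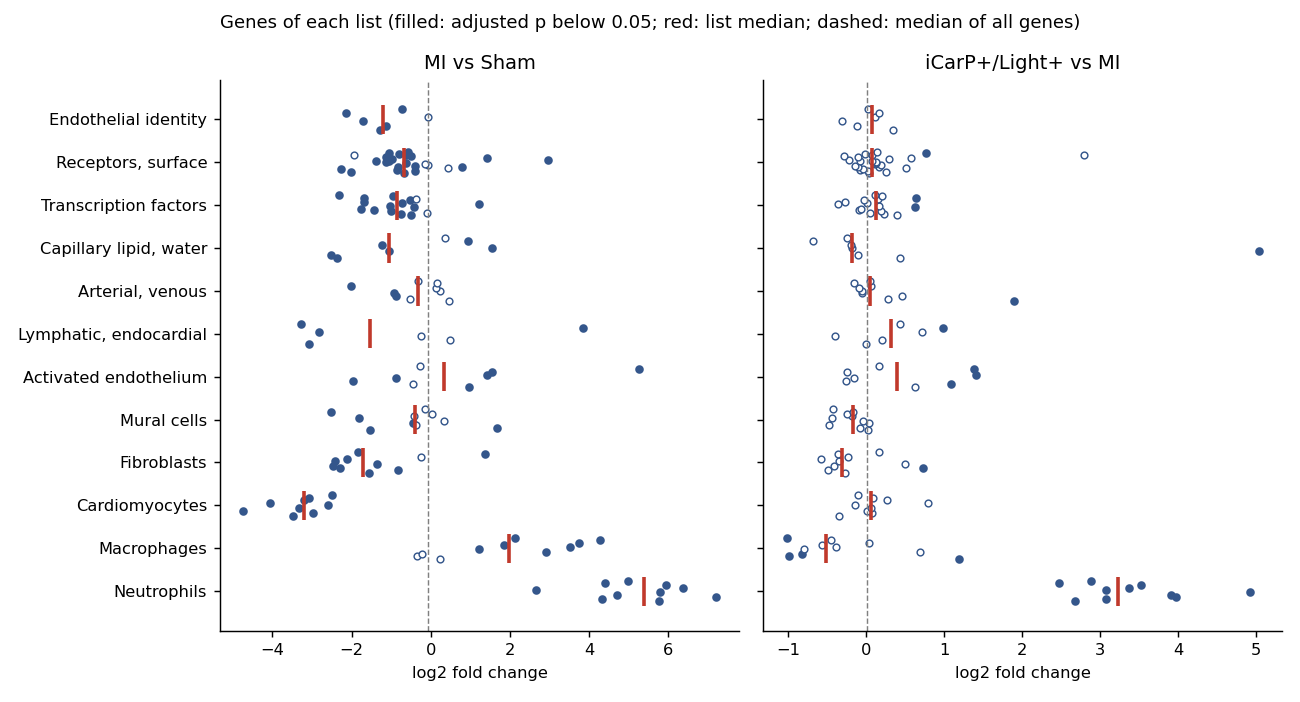
Log2 fold change (x axes) of the genes of each list (y axis) in MI over Sham (left) and iCarP+/Light+ over MI (right), as 1 point per gene tested, filled where the adjusted p was below 0.05, with the list median as a red bar and the median of all genes as a dashed line; the 2 x axes differ. After MI the endothelial identity genes have a median of -1.20, between the mural cells at -0.39 and the cardiomyocytes at -3.21, and over MI they lie near 0 while all neutrophil markers lie above 2.47.

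For each member the genes whose profile over the 12 rats lay nearest were found by the root mean square difference of centred log2 CPM, over 10716 protein-coding genes with at least 5 CPM on average. Nearest to Cdh5 were Dag1 (0.11) and Nid1 (0.13), and nearest to Emcn were Dhrs3 and Mrpl51 (0.12 each). Tie1 had Dmwd (0.13), and the Pecam1 locus had Sgce (0.12) and Dffa (0.13). Nos3 lay nearest to Sec31a (0.14) and Ssbp3 (0.15), neither of which was called in any of the 3 comparisons. The distances were larger for Fabp4, with Spsb4 and Cav3 (0.19 each), and for Rgcc, with Slc25a12 (0.22) and Idh3B (0.23). Among the members and the locus themselves the nearest pair was Tie1 and the Pecam1 locus (0.17), and Nos3 was 0.39 from its nearest, Tie1.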

How the data were processed

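Total RNA from LV tissue of 12 rats, 4 per group, was sequenced after library preparation with a NEBNext Ultra kit. The authors deposited raw read counts per gene, with symbol, type, position and length. The submitters' processing notes name HISAT2, featureCounts and rn6; versions, strand setting and annotation release are not given in the sources used here. Total counts were 14064414 to 17136958 per rat, and the floor of 3 counts covers counting error only. Samples are called rats after the study's design; the labels do not say that each is a separate animal, and p-values measure the spread between samples only.

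The analysis used edgeR 4.0.16 in R 4.3.3: filterByExpr (minimum count 10, 15101 genes kept), TMM scaling and a quasi-likelihood fit of the 3 groups over all 12 rats, with Benjamini-Hochberg adjustment over all genes and a threshold of 0.05. Intervals are at 95%. Log2 CPM used a prior count of 2. TMM assumes that most genes do not differ, whereas 33.6% were called lower and 30.2% higher in MI over Sham. CPM are shares of a library, so a member's level depends on the other RNA in the tissue. Single genes were also compared by exact permutation (scipy 1.17.1). Alternatives were DESeq2's size factors, total counts alone, DESeq2 1.42.0, limma-voom (limma 3.58.1), other filters, removal of mitochondrial genes, only the rats compared, a replicate block and each rat left out. A check on simulated counts changed few genes, in equal numbers up and down, so it does not bear on the scaling of these libraries. Within each group, the chi-square per gene between rats was 14.0 to 111, where counting noise gives about 1, so no pair was treated as one library.

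The members and lists were chosen with earlier results of these data known. Beyond the members, genes were named by rule: from each of the 6 further endothelial lists, the 2 highest and 2 lowest called log2 fold changes in MI over Sham and in iCarP+/Light+ over MI (mean of at least 1 CPM), and the 2 nearest genes of each member, 1 of which is not reported here. Upstream sequences are from RefSeq (GRCr8). Plots were drawn with matplotlib 3.10.9.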

Additional observations from a re-analysis of the deposited data

Results flagged for a closer look

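In 4 cases a single rat stood apart from the 3 others of its group, judged by its gap to the nearest rat over the range of the group against Dixon's critical value. Emcn was lowest in Sham 2 (gap over range 0.869), at 91.6 CPM beside 109 to 112 CPM. The Pecam1 locus was highest in MI 5 (0.903), at 174 CPM beside 147 to 149 CPM. The summed level of the lymphatic and endocardial genes was highest in MI 1 (0.852), at 323 CPM beside 225 to 237 CPM. The summed level of the mural cell markers was lowest in MI 4 (0.844), at 616 CPM beside 933 to 1007 CPM. Chance gives about 1 in 20 such cases, or 3.3 of the 66 groups of 4 that were looked at. The calls of Emcn and of the Pecam1 locus over Sham held with each of the 12 rats left out in turn.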

How the results depend on the processing

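Beside leaving out rats, 9 settings were tried. Among log2 fold changes of the members and the locus, 170 values kept direction and side of the threshold, 3 lost the call and 16 turned direction, and with each rat left out 244 kept both and 8 turned. The calls of Cdh5, Emcn, Fabp4 and Rgcc over Sham held in all of these fits. With total counts alone, Tie1 (MI and iCarP+/Light+ over Sham) and the Pecam1 locus (MI over Sham) lost their calls, as given above. Values turned only for genes that were not called in that comparison under TMM, and the cause was not tested. For Nos3 in MI over Sham these were 0.51 with total counts alone, 0.0094 with at least 10 counts in every rat and 0.069 with only the rats compared. In iCarP+/Light+ over MI, total counts alone gave -0.16 for Nos3, -0.24 for Tie1, -0.11 for Rgcc and -0.22 for the Pecam1 locus. Tie1 was also -0.021 with DESeq2's size factors, -0.021 with DESeq2, -0.030 with at least 10 counts in every rat, -0.011 without mitochondrial genes and -0.010 with only the rats compared, and the locus was -0.0051 with DESeq2's size factors, -0.0050 with DESeq2 and -0.014 with at least 10 counts in every rat.

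With each rat left out, the log2 fold change of Nos3 ranged from -0.19 to 0.046 in MI over Sham and from -0.0087 to 0.093 in iCarP+/Light+ over Sham, and in iCarP+/Light+ over MI that of Tie1 from -0.050 to 0.15, of Rgcc from -0.13 to 0.31 and of the locus from -0.062 to 0.11. The number of the 71 further endothelial genes called lower in that comparison was 0 to 1, and the numbers of all genes called were 157 to 438 lower and 1125 to 2066 higher, with 1125 higher without iCarP+/Light+ 5, 157 lower without iCarP+/Light+ 2 and 164 lower without MI 1.

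Of the counts of calls, total counts alone moved those of MI over Sham to 1 member higher in place of 0, 19 further endothelial genes lower in place of 43 and 21 higher in place of 11, and 2776 genes lower in place of 5080 and 7707 higher in place of 4553. In iCarP+/Light+ over MI, 1 of the further endothelial genes was lower with DESeq2's size factors, 5 with total counts alone, 2 with DESeq2, 2 with at least 10 counts in every rat and 1 without mitochondrial genes, in place of 0. Over all genes, 304 were lower there, against 457, 2722, 763 and 475 with the first 4 of these settings.

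A replicate number shared between groups does not mark one animal. Deviations of same-numbered rats from the group means correlated by -0.15 to 0.065. These values show no pairing by number, but cannot exclude a shared day of surgery or of library preparation. A replicate block changed no call of a member, turned Tie1 in iCarP+/Light+ over MI to -0.044, and left 141 genes lower and 1157 higher in that comparison in place of 304 and 1747. At 4 rats per group and the SEs given, small differences between iCarP+/Light+ and MI rats were not detectable.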
